A study of Mus musculus with 6 samples.

Results

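From the 22048 genes in the deposited table, 10 were taken that encode FGF receptors or feedback and target mRNAs through which FGF signalling is usually read. They were the receptors Fgfr1, Fgfr2 and Fgfr3, the Sprouty genes Spry1, Spry2 and Spry4, the phosphatase gene Dusp6, the ETS factor genes Etv4 and Etv5, and the Sprouty-related gene Spred1. The list was set by name, but with earlier results of these data known. Each of the 10 symbols was found once, and all 10 were among the 13952 genes with enough reads to be tested. The samples were neural stem/progenitor cells (NSC/NPCs), grown as first-passage neurospheres from the hypothalamus of male C57BL/6 fetuses at E14.5. In the HE (high estradiol) group the dams had received estradiol valerate by gavage between E5.5 and E11.5, at 100 μg per kg of body weight per day. In the NC (control) group they had received corn oil over the same days, although 1 label calls these samples untreated. RNA-Seq covered 3 HE and 3 NC samples, each from 2 mice, and both groups grew in medium with 10 ng/mL EGF and 10 ng/mL bFGF, a ligand of the receptors described here. The model is thus 1 culture passage of pooled fetal cells kept in added FGF, and the labels do not say whether samples came from separate litters, so that p-values measure the spread between these samples.

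FGF receptors are tyrosine kinases at the cell surface that signal through RAS to the kinase ERK. ERK activity induces Etv4 and Etv5, which are ETS transcription factors, and it induces inhibitors of the same pathway. Sprouty and Spred proteins restrain RAS activation and the Dusp6 product removes phosphate from ERK, which is why their mRNAs are widely read as pathway output. In neural progenitors bFGF is a standard mitogen, and EGF signals through its own receptor, Egfr, to the same kinases. The question asked of the 6 samples was whether the output mRNAs followed the levels of the receptor mRNAs.

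Between 16078675 and 19137059 reads per sample fell on genes, and the 10 mRNAs held 574 to 7556 reads each. Values are RPKM, read counts scaled to gene length and library size, which allows levels of different genes to be compared per length. The progenitor markers Vim (1234 to 1803 RPKM), an intermediate filament gene, and Fabp7 (736 to 2383 RPKM), a fatty acid binding protein gene of radial glia, were abundant in all 6 samples. The third HE sample, HE3, stood apart from the others. The chi-square of read counts per degree of freedom was 81.7 and 86.6 between HE3 and the other HE samples, 15.6 between those 2, and 21.6 to 45.6 among the NC samples. HE3 held the highest or the lowest of the 6 values in 9 of the 10 mRNAs, so the members and the pathway lists are given below with and without it. Bulk RNA cannot tell fewer cells of a type from less RNA per cell.

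Of the receptors, Fgfr1 and Fgfr2 were lower in HE NSC/NPCs in every sample, while Fgfr3 was not. Fgfr2, the receptor with the widest difference, measured 20.7, 22.2 and 16.3 RPKM in NC against 12.5, 11.53 and 7.36 RPKM in HE. The groups did not overlap, and HE3 was the lowest. It averaged 19.7 ± 3.11 RPKM (SD, n = 3) in NC NSC/NPCs and 10.5 ± 2.74 RPKM in HE NSC/NPCs. In limma's fit across all genes tested the log2 fold change of HE against NC was -0.93 ± 0.22 (SE), with an unadjusted p of 0.00401 and a Benjamini-Hochberg adjusted p of 0.195. Without HE3 the log2 fold change was -0.70 ± 0.15.

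Fgfr1 was at 31.0, 31.1 and 26.6 RPKM in NC and at 21.03, 24.6 and 21.3 RPKM in HE. These groups did not overlap either, and HE3 lay between the other HE samples. HE differed from NC by a log2 fold change of -0.40 ± 0.12 (limma, unadjusted p of 0.0108, adjusted p = 0.195) and without HE3 it was -0.37 ± 0.12. The lncRNA genes Gm31288 and Gm16159 overlap Fgfr1 in the RefSeq annotation, and whether strand was used in counting is not stated, so reads may be shared with them.

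Fgfr3 was at 25.5, 37.1 and 30.7 RPKM in NC and at 41.8, 55.3 and 24.2 RPKM in HE. HE1 and HE2 lay above every NC sample and HE3 below every NC sample, so the group difference turned on 1 library. Its log2 fold change was 0.31 ± 0.30 over all samples (limma, unadjusted p of 0.327, adjusted p = 0.534) and 0.64 ± 0.19 without HE3 (unadjusted p of 0.0121 in limma's fit).

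The summed level of the 3 receptors was 77.2, 90.4 and 73.5 RPKM in NC and 75.4, 91.5 and 52.8 RPKM in HE. The sums of HE1 and HE2 lay inside or next to the NC range and that of HE3 below it. The makeup of the sum differed between the groups for Fgfr2 and Fgfr3. Fgfr2 made up 26.8%, 24.6% and 22.1% of it in NC and 16.6%, 12.6% and 13.9% in HE. Fgfr3 made up 33.0%, 41.0% and 41.8% in NC and 55.5%, 60.5% and 45.8% in HE. For neither of these 2 receptors did the shares of the groups overlap. For both, the exact permutation test over the 20 assignments of 3 samples against 3 gave p = 0.1, the smallest p that it can give. In HE3 the Fgfr3 share was above NC although its Fgfr3 level was the lowest, its sum being the lowest too. The Fgfr1 shares overlapped, at 40.2%, 34.4% and 36.1% in NC and 27.9%, 26.9% and 40.3% in HE, with HE3 the highest.

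Among the feedback mRNAs, Dusp6 and Etv4 were higher in every HE sample. Dusp6, the ERK phosphatase mRNA, was at 50.7, 41.2 and 56.5 RPKM in NC and at 73.0, 93.6 and 162 RPKM in HE. The groups did not overlap and HE3 was far above the others. It averaged 49.5 ± 7.76 RPKM (SD, n = 3) in NC NSC/NPCs and 109.7 ± 46.8 RPKM in HE NSC/NPCs. HE differed from NC by a log2 fold change of 1.08 ± 0.29 (limma, unadjusted p of 0.00689, adjusted p = 0.195) and 0.75 ± 0.17 without HE3. An lncRNA gene, Gm34921, overlaps Dusp6 in the annotation and may share its reads.

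Etv4, an ETS factor mRNA, was at 13.3, 13.3 and 15.3 RPKM in NC and at 17.9, 23.6 and 27.3 RPKM in HE. The groups did not overlap, with HE1 nearest to NC and HE3 farthest. Its log2 fold change was 0.70 ± 0.17 (limma, unadjusted p of 0.00415, adjusted p = 0.195) and 0.56 ± 0.14 without HE3. Its relative Etv5 behaved otherwise. Etv5 was at 46.9, 45.5 and 46.7 RPKM in NC and at 36.9, 45.4 and 60.6 RPKM in HE, so the HE samples spread to both sides of the NC samples. The log2 fold change of Etv5 was 0.0092 ± 0.18 (limma, adjusted p = 0.976) and turned to -0.18 ± 0.11 without HE3.

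The Sprouty mRNAs encode inhibitors that act at the level of RAS. Spry1 was at 16.2, 15.9 and 21.4 RPKM in NC and at 21.4, 24.4 and 36.02 RPKM in HE. Its groups met at NC3 and HE1, the other HE samples being higher than all NC samples. This gave a log2 fold change of 0.59 ± 0.22 (limma, unadjusted p of 0.0296, adjusted p = 0.217) and 0.37 ± 0.15 without HE3. Spry2 was the most abundant Sprouty mRNA, at 48.8, 49.2 and 57.3 RPKM in NC and at 50.7, 61.2 and 66.7 RPKM in HE. Its groups overlapped, and the log2 fold change was 0.20 ± 0.14 (limma, adjusted p = 0.406), or 0.11 ± 0.12 without HE3. Spry4 was at 9.43, 6.54 and 11.7 RPKM in NC and at 8.41, 12.9 and 14.3 RPKM in HE, with overlapping groups and a log2 fold change of 0.36 ± 0.27 (limma, adjusted p = 0.432) that was 0.21 ± 0.28 without HE3. Spred1, which restrains RAS through neurofibromin, was at 12.9, 16.5 and 12.6 RPKM in NC and at 12.8, 12.9 and 16.5 RPKM in HE. The Spred1 groups covered the same range, and the log2 fold change was 0.0088 ± 0.16 (limma, adjusted p = 0.974), turning to -0.11 without HE3.

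**Figure D1:**
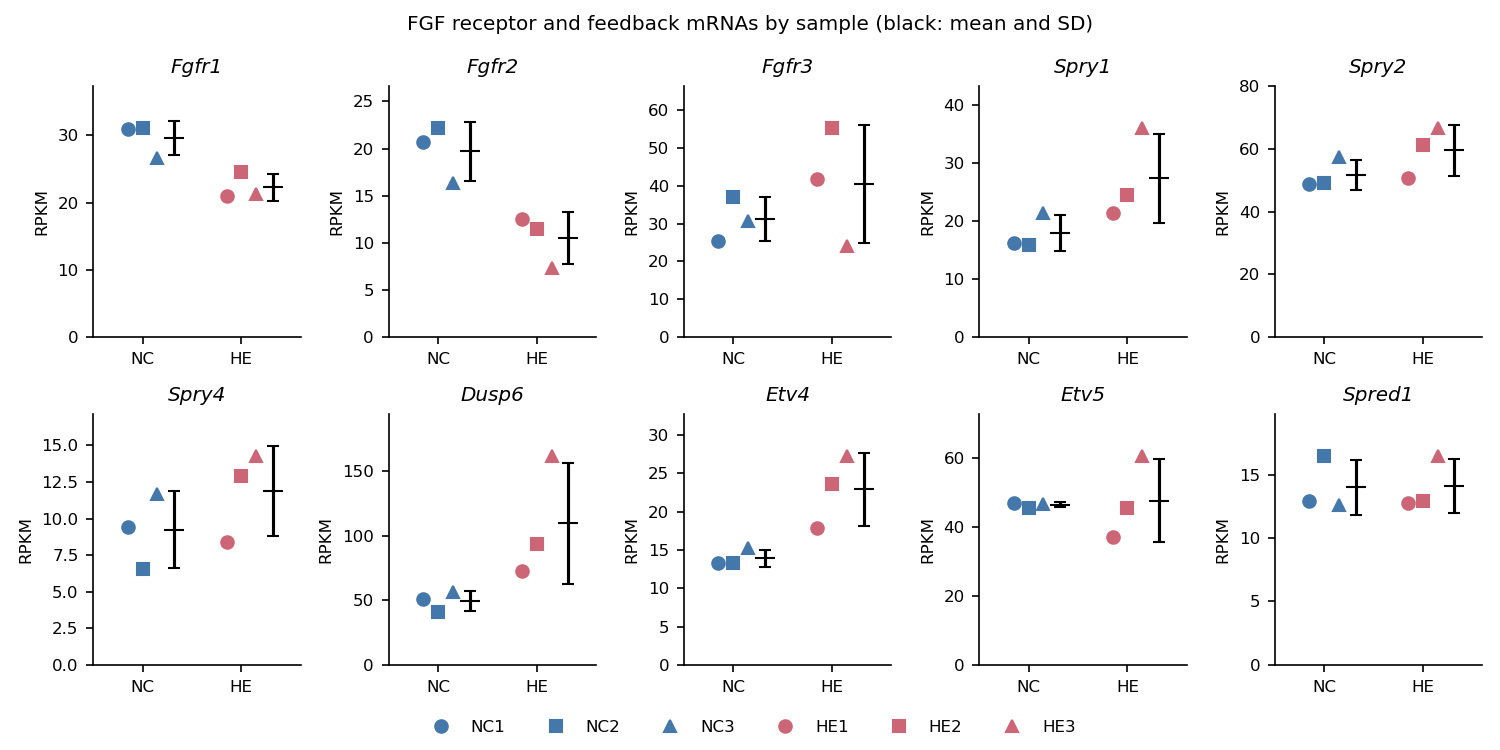
RPKM of each of the 10 mRNAs (vertical axis, from 0) in the 3 NC samples (blue) and the 3 HE samples (red), with the marker shape giving the replicate number and the black bar the mean and SD of the group. Fgfr1 and Fgfr2 lie lower and Dusp6 and Etv4 higher in all HE samples, and HE3 (red triangle) is the highest sample in all 7 feedback mRNAs.

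In limma's fit of RPKM no member passed both cutoffs, an absolute log2 fold change of 1 and an adjusted p below 0.05. Of all genes tested, 0% did. The paper reports differentially expressed mRNAs at the same cutoffs from DESeq2, which was not run here. Of the members, 3 (Spry1, Dusp6 and Etv4) were higher at an unadjusted p under 0.05, where 8.68% of all genes tested were higher, and 2 (Fgfr1 and Fgfr2) were lower, where 11.8% were. The groups did not overlap for 2 members with HE higher and 2 with HE lower, against 14.8% and 17.9% of all genes tested. Without HE3, 4 members were higher at an unadjusted p under 0.05 (Fgfr3 was added) and 2 lower, against 9.35% and 10.5% of all genes. Where limma gave each sample a weight by its spread, so that HE3 counted least, 4 members had an adjusted p under 0.05, against 6.28% of all genes. They were Fgfr2 (-0.76 on the log2 scale, adjusted p = 0.0333), Fgfr3 (0.78, adjusted p = 0.0491), Dusp6 (0.84, adjusted p = 0.0333) and Etv4 (0.68, adjusted p = 0.0333), all short of the log2 fold change of 1. With voom on the read counts and sample quality weights only Fgfr2 passed (-0.75, adjusted p = 0.0483), against 1.83% of all genes.

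**Figure D2:**
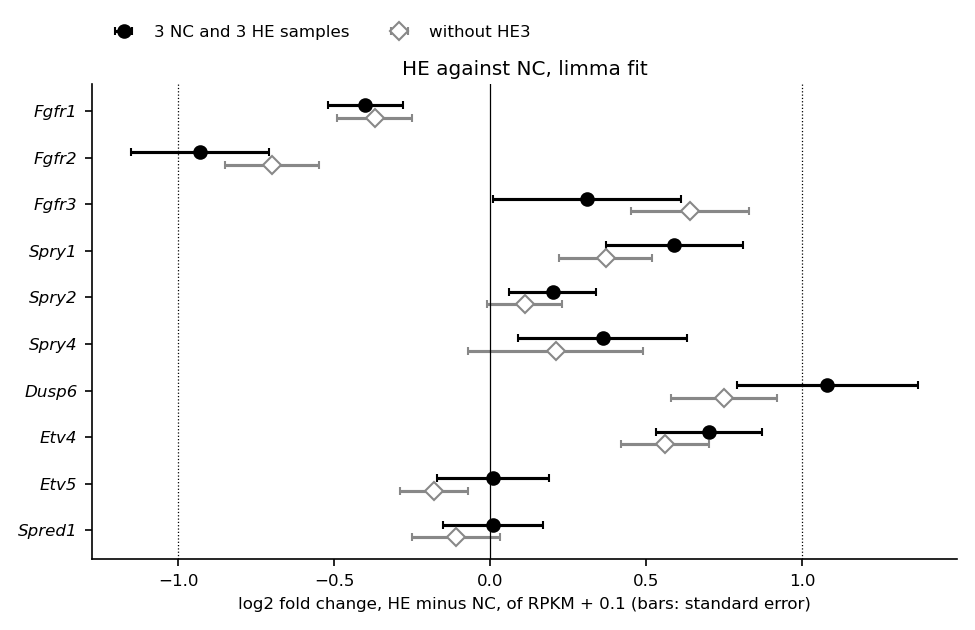
Log2 fold change of HE against NC for each of the 10 mRNAs (horizontal axis, on log2(RPKM + 0.1), bars are standard errors), over all samples (black circles) and without HE3 (open diamonds), with dotted lines at the cutoff of 1 either way. Fgfr2 at -0.93 and Dusp6 at 1.08 lie at the 2 ends, and Fgfr3 moves from 0.31 to 0.64 without HE3.

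The order of the levels changed between the groups. In NC, Spry2 (51.8 RPKM on average), Dusp6 (49.5 RPKM) and Etv5 (46.4 RPKM) were the highest, the range of Dusp6 over the samples overlapping those of both others, and Spry4 (9.24 RPKM) was the lowest, below the range of Etv4 (13.9 RPKM). In HE, Dusp6 (109.7 RPKM) lay above the range of Spry2 (59.5 RPKM), and Fgfr2 (10.5 RPKM) was the lowest, its range overlapping that of Spry4 (11.9 RPKM). Fgfr2 moved from the sixth place of the 10 to the last.

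Over the 6 samples, the feedback mRNAs were not higher where Fgfr1 or Fgfr2 was higher, and several were higher where Fgfr2 was lower. All 3 receptors were compared with all 7 feedback mRNAs, which makes 21 pairs, by Pearson's r and Spearman's rho of log2(RPKM + 0.1). Each p comes from the exact two-sided permutation test over 720 pairings, and the adjusted p is over all genes tested against that receptor. Fgfr2 and Dusp6 gave r = -0.99 (exact p = 0.00139, adjusted p = 0.0429) and rho = -1 (exact p = 0.00278, adjusted p = 0.0661), that is, the samples stood in exactly opposite order. Fgfr2 and Spry1 gave r = -0.98 (exact p = 0.00278, adjusted p = 0.0452) and rho = -0.94 (exact p = 0.0167, adjusted p = 0.110). Fgfr2 and Etv4 gave r = -0.97 (exact p = 0.00278, adjusted p = 0.0452) and rho = -0.94 (exact p = 0.0167, adjusted p = 0.110). Spry2 followed at r = -0.85 (exact p = 0.0319, adjusted p = 0.102) and rho = -0.89 (exact p = 0.0333). Spry4 (r = -0.76, rho = -0.83), Etv5 (r = -0.45, rho = -0.086) and Spred1 (r = -0.20, rho = -0.26) did not pass an exact p of 0.05. As background, 14.4% of all other genes tested were negatively and 23.0% positively related to Fgfr2 at the same unadjusted p. An r with Fgfr2 at or below that of Dusp6, Spry1 and Etv4 was reached by 0.459%, 0.982% and 1.81% of genes. The share of all genes passing the adjusted p is not given here, so the 3 pairs that passed it cannot be set against that share. The 6 Sprouty, Dusp6 and Etv mRNAs were themselves related, with r from 0.45 to 0.97 over their 15 pairs (median 0.82), so the pairs with Fgfr2 are not independent of one another.

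**Figure D3:**
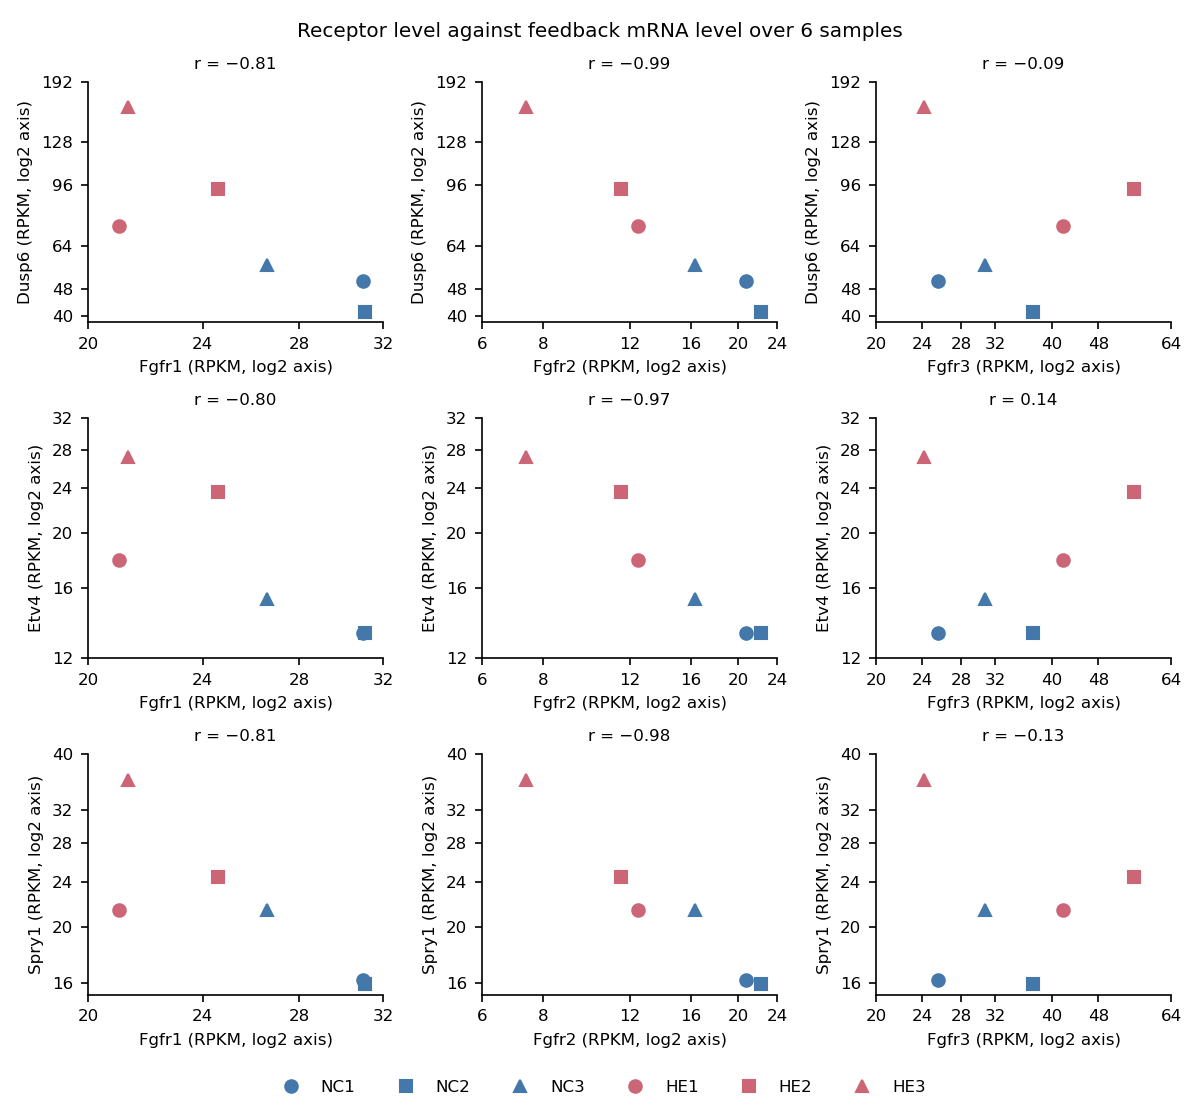
RPKM of Fgfr1, Fgfr2 and Fgfr3 (horizontal axes, log2 scale) against RPKM of Dusp6, Etv4 and Spry1 (vertical axes, log2 scale), with NC samples in blue, HE samples in red and the marker shape giving the replicate number. The middle column falls from upper left (HE3) to lower right (NC2), with r of -0.99, -0.97 and -0.98, while no such order is seen against Fgfr3, with r of -0.09, 0.14 and -0.13.

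Since Fgfr2 separated the groups, part of these relations is the group difference itself, so r was also taken on deviations from the group means, with the exact test over the 36 pairings within groups, whose smallest p is 0.0278. There Fgfr2 gave r = -0.96 with Dusp6 (exact p = 0.0278, adjusted p = 0.355), -0.99 with Spry1 (exact p = 0.0278, adjusted p = 0.355) and -0.86 with Etv4 (exact p = 0.111, adjusted p = 0.426). Etv5, which did not differ between the groups on average, gave -0.85 with Fgfr2 within groups (exact p = 0.0556, adjusted p = 0.373). The direction for Etv5 and Spred1 turned on HE3. Without HE3, on levels not centred by group, Fgfr2 gave r = 0.52 with Etv5 and 0.61 with Spred1 (exact p = 0.508 and 0.267). Over all samples these were -0.45 and -0.20, and without HE3 5 of the 7 Fgfr2 pairs stayed negative. The 2 samples farthest from the median of Fgfr2 were HE3 and NC2. Without them r was -0.95 for Dusp6, -0.94 for Etv4 and -0.91 for Spry1 over the remaining 4 samples, with exact p = 0.125, 0.0833 and 0.0833. Leaving out any 1 sample, r lay between -0.99 and -0.97 for Dusp6, between -0.99 and -0.94 for Etv4 and between -0.99 and -0.95 for Spry1, and no pair passed an adjusted p of 0.05 over 5 samples.

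Fgfr1 leaned the same way with less certainty. It gave r = -0.81 with Dusp6 (exact p = 0.0458, adjusted p = 0.208, rho = -0.83), r = -0.81 with Spry1 (exact p = 0.0431, adjusted p = 0.205, rho = -0.66) and r = -0.80 with Etv4 (exact p = 0.0625, adjusted p = 0.233, rho = -0.77). At that unadjusted p 9.54% of all genes tested were negatively and 13.1% positively related to Fgfr1. With median-of-ratios scaling r was -0.62 with Dusp6 (exact p = 0.175), -0.59 with Spry1 (exact p = 0.208) and -0.64 with Etv4 (exact p = 0.169), so that no Fgfr1 pair passed an unadjusted exact p of 0.05. Within groups r was also nearer to 0, at -0.30 with Dusp6, -0.50 with Spry1 and -0.10 with Etv4. Without HE1 and NC2, the samples farthest from the median of Fgfr1, r was -0.95, -0.99 and -0.94.

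Fgfr3 showed no steady relation. Its r with the 7 feedback mRNAs ran from -0.62 (Etv5) to 0.14 (Etv4), and none passed an unadjusted exact p of 0.05 by Pearson's r, where 0.767% of all genes tested were negatively and 2.27% positively related to Fgfr3. By rank, Fgfr3 and Etv5 gave rho = -0.94 (exact p = 0.0167, adjusted p = 1.00). HE3 decided the direction of several pairs. Without it Fgfr3 gave r = 0.73 with Dusp6 (from -0.089) and 0.87 with Etv4 (exact p = 0.158 and 0.0583), and 6 of the 7 pairs were above 0, against 1 of 7 over all samples.

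**Figure D4:**
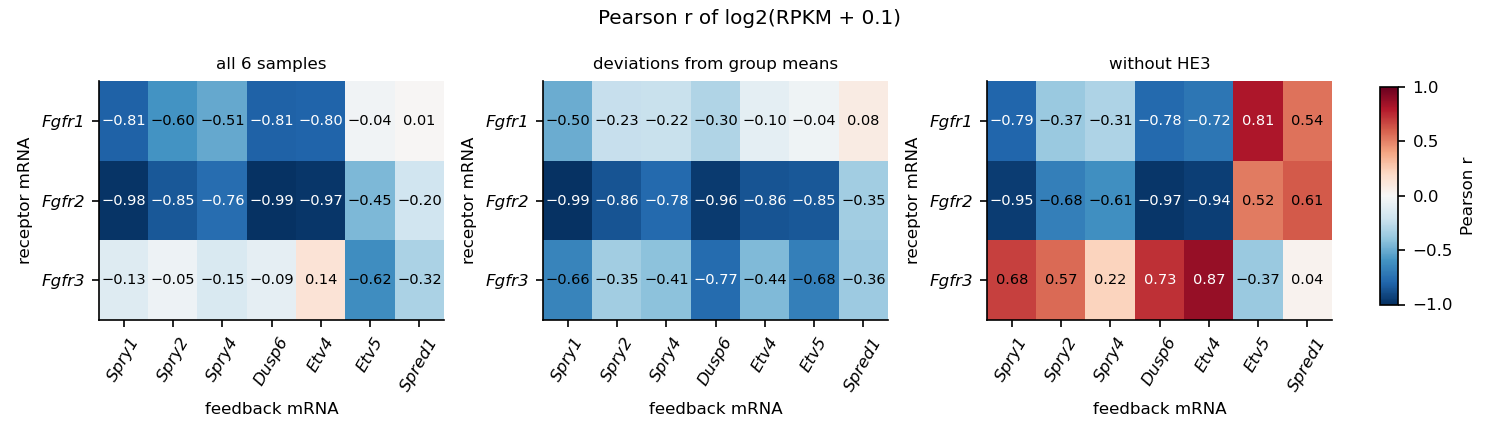
Pearson's r of log2(RPKM + 0.1) between each receptor mRNA (rows) and each feedback mRNA (columns), over all 6 samples (left), on deviations from the group means (middle) and without HE3 (right), with blue for negative and red for positive r. The Fgfr2 row stays at -0.86 or lower for Spry1, Dusp6 and Etv4 in all 3 panels, and the Fgfr3 row turns from mostly blue to mostly red without HE3.

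Averaged, the 3 receptors (mean of log2(RPKM + 0.1)) stood at 4.67, 4.89 and 4.57 in NC and at 4.48, 4.65 and 3.97 in HE. The output score, the same mean over Spry1, Spry2, Spry4, Dusp6, Etv4 and Etv5, stood at 4.64, 4.50 and 4.86 in NC and at 4.79, 5.15 and 5.52 in HE. The scores are given without a test, since they are built from chosen members. They gave r = -0.86 and rho = -0.77 over the 6 samples, and -0.77 on deviations from the group means. This relation rested on the samples at the ends, since r was 0.14 without HE3 and NC2, and -0.53 without HE3 alone. With the summed receptor RPKM in place of the mean r was -0.68.

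Egfr, the receptor of the other mitogen in the medium, was at 26.4, 31.7 and 24.3 RPKM in NC and at 31.0, 39.9 and 48.4 RPKM in HE. Only HE1 lay within the NC range. The log2 fold change of Egfr was 0.52 ± 0.18 (limma, unadjusted p of 0.0257, adjusted p = 0.210) and 0.36 without HE3. Its r with the feedback mRNAs, given with no test, ran from 0.47 with Spry4 to 0.84 with Dusp6 and 0.88 with Etv4. On deviations from the group means Egfr gave 0.57 with Dusp6, 0.47 with Spry1 and 0.66 with Etv4, where Fgfr2 had given -0.96, -0.99 and -0.86. Egfr and Fgfr2 themselves gave r = -0.80 over the 6 samples and -0.44 within groups.

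The genes whose levels went most closely with each receptor were taken by Pearson's r among 11523 genes with a mean of at least 1 RPKM, over 6 samples and with no test. For Fgfr2 they were Zdhhc18 (r = 0.999), a palmitoyltransferase family gene, Ttc39c (0.998) and the nuclear lamina gene Lmna (0.997). Zdhhc18 was at 16.2, 16.7 and 13.0 RPKM in NC and at 9.87, 9.46 and 6.23 RPKM in HE, close to the pattern of Fgfr2. For Fgfr1 they were Rnf10 (0.997), Arhgef40 (0.996) and Ppp2r3d (0.991). For Fgfr3 they were Spock2 (0.990), a proteoglycan gene, Wapl (0.982), a cohesin release factor gene, and Rbbp5 (0.979).

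The rest of the pathway gave no list in which most genes moved one way past the unadjusted threshold. Over all genes tested the median log2 fold change was -0.059, and 43.8% were above 0. Without HE3 that median was -0.00018, and the shares higher and lower at an unadjusted p under 0.05 are those given above. Of 22 Fgf genes, listed as ligands by name, only 7 were tested, 3 with values above and 4 below 0. None passed an unadjusted p under 0.05, and the median was -0.065 (-0.095 without HE3, again with none). The genes tested include intracellular FGFs, so these counts and the median do not describe receptor ligands alone. Fgf11, an intracellular FGF that does not signal through these receptors, was the highest and stood at 28.2, 28.4 and 34.2 RPKM in NC and at 25.9, 25.8 and 2.98 RPKM in HE, so that HE3 alone was low. Its log2 fold change was -1.25 over all samples and -0.22 without HE3. Fgf2, which encodes bFGF, was at 1.85, 2.54 and 1.09 RPKM in NC and at 1.54, 0.951 and 0.679 RPKM in HE (log2 fold change -0.73 ± 0.38, limma, adjusted p = 0.293). Fgf1 had a log2 fold change of 1.19 ± 0.51 (limma, adjusted p = 0.247). Fgf12 and Fgf14, intracellular like Fgf11, had 0.44 and 0.46.

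Of 16 other receptors and coreceptors tested, 3 were higher and 3 lower at an unadjusted p under 0.05, with a median of -0.085. Without HE3, 3 were higher and 4 lower, and the median was 0.059. Sdc4, a heparan sulfate proteoglycan that helps FGF bind its receptors, was the most abundant and was at 347, 468 and 265 RPKM in NC and at 218, 200 and 184 RPKM in HE (log2 fold change -0.81 ± 0.21, limma, adjusted p = 0.195). Its groups did not overlap. Glypican Gpc3 was low but higher in each HE sample (log2 fold change 1.68 ± 0.33, limma, adjusted p = 0.195), and Flrt2 had a log2 fold change of 0.60. Ncam1 had a log2 fold change of 0.076. The decoy-like receptor Fgfrl1 was at 63.3, 61.3 and 51.6 RPKM in NC and at 48.7, 43.2 and 70.6 RPKM in HE, HE3 being the highest sample and the other HE samples below all NC samples. Its log2 fold change was -0.14 ± 0.19 over all samples and -0.35 ± 0.12 without HE3 (unadjusted p of 0.0234). The fourth receptor, Fgfr4, stayed between 0.0702 and 0.300 RPKM in all samples, and the klotho genes Kl and Klb did not reach the filter.

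Of the 24 RAS-ERK cascade genes, all tested, 4 were lower and none higher at an unadjusted p under 0.05, with a median of -0.19. Without HE3 the same 4 and Plcg1 were lower, with a median of -0.06. The adaptors Shc1 (-0.50 ± 0.12) and Grb2 (-0.44 ± 0.14), the scaffold Ksr1 (-0.83 ± 0.29) and the ERK-activated kinase Rps6ka1 (-0.39 ± 0.12) were these 4, with limma adjusted p of 0.195, 0.197, 0.205 and 0.195. The kinases Map2k1 (-0.11), Map2k2 (0.019) and Mapk3 (-0.26), which were the most abundant of the list, had adjusted p of 0.673, 0.940 and 0.360 in the same limma fit. Of 15 other feedback inhibitors tested, Dusp7 (0.51 ± 0.17) and Dusp9 (0.86 ± 0.31) were higher and Il17rd (-0.56 ± 0.17) and Spred3 (-0.46 ± 0.15) lower at an unadjusted p under 0.05, with a median of -0.13 over the list. The most abundant were Lrig1 (0.042), Dusp4 (-0.11) and Dusp1 (-0.21), whose HE3 value of 3.94 RPKM lay below the 10.2 to 21.4 RPKM of the other 5 samples. Without HE3 the same 4 passed and 2 more inhibitors were higher, with a list median of -0.049. These were Dusp1, whose log2 fold change turned from -0.21 to 0.53 ± 0.20 (unadjusted p of 0.0336), and the EGF receptor inhibitor Errfi1, which went from 0.19 to 0.63 ± 0.10 (unadjusted p of 0.00048).

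For other mRNAs that ERK induces the result turned on HE3. This list held 14 genes, of which Dusp4 and another Dusp gene were also counted among the feedback inhibitors. Over all samples none was higher and 2 were lower at an unadjusted p under 0.05, with a median of 0.12. Without HE3 there were 3 higher and 1 lower, with a median of 0.20. The 3 were the immediate early genes Fos (0.99 ± 0.24), Ier2 (0.97 ± 0.23) and Egr2 (0.74 ± 0.16), with unadjusted p of 0.00481, 0.00423 and 0.00331 and none with an adjusted p under 0.05 in limma's fit. Ier3 was at 166, 188 and 136 RPKM in NC and at 112, 92.9 and 92.2 RPKM in HE (log2 fold change -0.71 ± 0.16, limma, adjusted p = 0.195), and its log2 fold change was -0.66 without HE3. The ephrin receptor Epha4 was the other (-0.74 ± 0.28, adjusted p = 0.221 in limma), at -0.65 without HE3. Fos was at 94.8, 127 and 169 RPKM in NC and at 231, 276 and 40.7 RPKM in HE, with HE3 below and the other HE samples above all NC samples. Ccnd1, the cyclin D1 gene, reached 489 RPKM in HE3 against 155 to 218 RPKM in the other 5 samples, and its log2 fold change of 0.59 ± 0.34 (limma, adjusted p = 0.324) was 0.19 ± 0.16 without HE3. Of 13 other ETS factors, Ets1 (0.50 ± 0.15) and the barely detected Fli1 (1.19 ± 0.31) were higher and Etv6 (-0.32 ± 0.13) was lower at an unadjusted p under 0.05, and the list's median was -0.16. Without HE3 the same 3 passed, with a median of -0.15. The abundant members Erf (-0.16), Elf2 (-0.34) and Gabpa (0.047) had adjusted p of 0.445, 0.294 and 0.821 in the same limma fit.

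**Figure D5:**
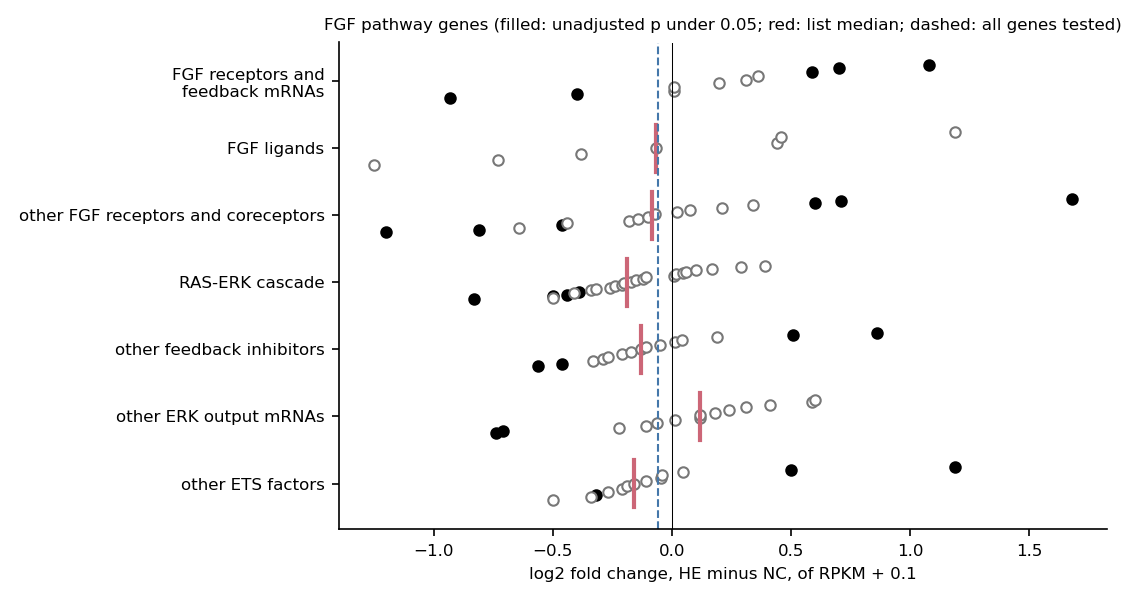
Log2 fold change of HE against NC (horizontal axis, on log2(RPKM + 0.1)) of the 10 members (top row) and of every tested gene of 6 other FGF pathway lists, 1 point a gene, with filled points at an unadjusted p under 0.05, red bars at the list medians and a dashed line at the median of all genes tested, -0.059. Over all 6 samples the list medians lie between -0.19 and 0.12, with single genes on both sides in every list.

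Promoters are shown for Dusp6 and Spry1, which had the 2 lowest r with Fgfr2, and for Fgfr2 itself. Each is the RefSeq sequence (GRCm38.p6) of the 250 bases before the annotated gene start, printed 5′ to 3′ on the strand of the gene. Capitals mark GGAA or its reverse complement TTCC, the core that ETS factors such as Etv4 and Etv5 bind. The Dusp6 window is chr10:99262981-99263230 (plus strand), the Spry1 window chr3:37639697-37639946 (plus strand) and the Fgfr2 window chr7:130266809-130267058 (minus strand).
Dusp6: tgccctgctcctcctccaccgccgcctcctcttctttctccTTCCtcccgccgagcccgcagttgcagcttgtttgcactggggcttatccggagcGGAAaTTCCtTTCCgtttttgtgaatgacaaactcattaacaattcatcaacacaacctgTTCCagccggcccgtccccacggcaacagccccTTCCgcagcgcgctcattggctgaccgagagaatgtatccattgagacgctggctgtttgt
Spry1: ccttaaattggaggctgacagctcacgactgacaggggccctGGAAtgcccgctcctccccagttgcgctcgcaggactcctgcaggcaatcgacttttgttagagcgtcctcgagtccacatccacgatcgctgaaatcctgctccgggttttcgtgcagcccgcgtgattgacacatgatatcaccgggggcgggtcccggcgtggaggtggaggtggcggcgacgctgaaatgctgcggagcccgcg
Fgfr2: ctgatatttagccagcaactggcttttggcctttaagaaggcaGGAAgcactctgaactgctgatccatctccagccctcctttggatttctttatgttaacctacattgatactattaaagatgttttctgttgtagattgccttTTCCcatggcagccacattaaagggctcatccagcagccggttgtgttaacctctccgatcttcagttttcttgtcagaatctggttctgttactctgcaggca
The Dusp6 window held 6 such cores, the Spry1 window 1 and the Fgfr2 window 2. The core is common, being present in 93.4% of all 32851 promoter windows of that length, so its presence sets no window apart. Windows were found for 7 of the 10 members, 9 windows in all, of which 8 held GGAA. The longer letters CCGGAAG, on either strand and including a GGAA core, were in none of the 9 and in 6.91% of all windows. CCAAT was in 5 of 9 and in 33.8% of all, and GGGCGG in 5 of 9 and in 32.7% of all. The windows differed most in base composition. That of Fgfr2 had 44.0% G and C and an observed over expected CpG ratio of 0.17, below the medians of all windows (52.4% and 0.37). The other 8 member windows had 56.4% to 72.8% G and C and ratios of 0.69 to 1.00, those of Dusp6 being 56.4% and 0.86 and those of Spry1 62.4% and 0.95.

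In the RefSeq annotation Fgfr1 lies at chr8:25518759-25575718, Fgfr2 at chr7:130162451-130266808 and Fgfr3 at chr5:33721724-33737068. Dusp6 lies at chr10:99263231-99267489, Etv4 at chr11:101769747-101785310, Etv5 at chr16:22381313-22439570 and Spry1 at chr3:37639947-37644599. All are protein coding, and the RPKM values sum reads over the whole gene, so they carry no information on receptor isoforms.

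The summed markers of oligodendrocyte lineage, microglia and endothelial cells did not overlap between the groups, while the other marker sums did. No marker passed both cutoffs, as no gene tested did. The part of these cell types in the differences above was not tested. Summed over 12 oligodendrocyte lineage markers, the level was 323 to 364 RPKM in NC and 367 to 519 RPKM in HE. Olig1 and Olig2 were the highest, at 312 and 182 RPKM in HE3 against at most 188 and 131 RPKM elsewhere, while the later marker Sox10 was at 1.65 RPKM in HE3 against 13.0 to 16.5 RPKM in the other samples. By gene, 9 of the 11 oligodendrocyte lineage markers tested had log2 fold changes below 0 and 2 above (median -0.32). Without HE3, 3 were below and 8 above (median 0.14). Summed over 12 astrocyte markers the level was 4447 to 6212 RPKM in NC and 2425 to 4629 RPKM in HE, with Apoe and Aldh1l1 the highest. Of the astrocyte markers, 7 were below 0 and 5 above (median -0.31), with 1 lower and 2 higher at an unadjusted p under 0.05. The 14 neural progenitor markers summed to 3165 to 3825 RPKM in NC and 3044 to 4765 RPKM in HE, a sum led by Vim and by Fabp7, which reached 2383 RPKM in HE3. By gene, 11 of the 14 had log2 fold changes below 0 (median -0.24), with Prom1 (-0.87) and Notch1 (-0.56) at an unadjusted p under 0.05. Without HE3, 10 progenitor markers were below 0 and 4 above (median -0.21), with 4 lower and none higher at that p. Of all genes tested 11.8% were lower at that p, and 10.5% without HE3. The 12 neuron markers, led by Gap43 and Tubb3, summed to 124 to 157 RPKM in NC and 142 to 280 RPKM in HE, with Gap43 at 202 RPKM in HE3, while 7 of the 12 were below 0 and 5 above (median -0.075). The 10 microglia markers summed to 0.720 to 1.15 RPKM in NC and 2.05 to 9.58 RPKM in HE, with C1qb at 0 in 2 NC samples and P2ry12 under 1 RPKM in all. The 9 endothelial markers, led by Flt1 and Cdh5, summed to 2.79 to 3.81 and 4.69 to 6.21 RPKM. The 10 mesenchymal markers, led by Tagln and Col3a1, summed to 77.7 to 181 and 106 to 227 RPKM. Of the 4 endothelial markers tested, 3 were above 0 and 1 below (median 0.83), with 2 higher at an unadjusted p under 0.05. Without HE3 the median was 1.13, with 3 higher. Of the 9 mesenchymal markers tested, 7 were above 0 and 2 below (median 0.55), with 2 higher at that p. Without HE3 the median was 0.82, with 5 higher. None of either list was lower at that p, and of all genes tested 8.68% were higher (9.35% without HE3). Every marker list held reads for each of its genes in at least 1 sample.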

How the data were processed

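RNA-Seq of 3 HE and 3 NC samples was used. The authors trimmed reads, aligned them with TopHat2 to mm10 and counted them per gene. The submitters' processing notes also name CASAVA 1.7. How reads were assigned to genes, and whether by strand, is not given in the sources used here. The deposited table holds RPKM, computed by the authors from counts, gene length and sample total (checked, differing by at most 4.99e-07), and the read counts, which the authors did not normalize. Counts are written with commas between digits and were therefore used only for depth, filters and voom, whereas the deposited RPKM entered the tests.

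Group comparisons were fitted to log2(RPKM + 0.1) by limma 3.58.1 (R 4.3.3, trended variance, group as sole term). A gene entered (13952 did) if 3 or more samples exceeded the equivalent of 10 reads at the median library size and all samples together held 15 or more. This scale understates changes of low genes. The fit and the permutation code (Python 3, scipy) were tested on simulated data. Correlations were planned with adjustment over the 21 pairs. Adjustment over all genes tested is printed instead, because the members and lists were chosen with earlier results of these data known. Symbols were found for 21781 identifiers. Positions and promoters come from RefSeq, GRCm38.p6, which mm10 matches. Named genes were the 10 members, Egfr, the 3 highest and the 3 of smallest p in each pathway list, the 2 highest in each marker list, and the 3 most like each receptor. Ksr1, Dusp9, Fgfr4, Kl, Klb, Sox10, Plcg1, Errfi1, Ier2, Egr2, Prom1 and Notch1 were named after their values were seen. A result for a single gene is not reported here. Alternatives changed the pseudocount, filter, scaling, weights, the samples and the replicate block.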

Additional observations from a re-analysis of the deposited data

How the results depend on the processing

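Over 16 fits, no member passed both cutoffs in any, while the count over all genes was 0 in 13 fits, 103 without NC3, 113 with voom and sample quality weights and 268 with limma's sample weights, so leaving out 1 library gave 0 to 103. At an unadjusted p under 0.05, 2858 genes passed in the fit reported. Fgfr1, Fgfr2, Fgfr3, Spry1, Spry2, Spry4, Dusp6 and Etv4 kept their direction in every fit, Fgfr2 between -1.08 and -0.70, Dusp6 between 0.75 and 1.33, Etv4 between 0.56 and 0.86 and Fgfr3 between 0.048 and 0.78, and the adjusted p of Fgfr2 and Dusp6 ran from 0.0333 to 0.502. Spry1 missed an unadjusted p of 0.05 without NC1 and without NC2. Etv5 and Spred1 lay near 0 and changed sign. Etv5 was between -0.18 and 0.18 over the fits that left out 1 library, -0.11 with voom and sample quality weights and -0.094 with sample weights. Spred1 was between -0.11 and 0.13, -0.051 and -0.051. With the replicate number as a block the count of calls stayed at 0 and 3184 genes had an unadjusted p under 0.05, with the same 5 members among them. The numbers mark no shared origin in the labels, same-numbered samples deviated together with r = 0.156, 0.087 and 0.060, and each sample correlated best with its own number, a hint from the data and not the design.

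The 3 pairs of Fgfr2 with an adjusted p under 0.05 became 0 on deviations from group means, without the 2 samples farthest from the receptor's median, and 0 to 0 over the fits that left out 1 sample, where fewer samples allow only larger p. Of the Fgfr1 pairs, 2 had an unadjusted exact p under 0.05 and 0 did with median-of-ratios scaling. Fgfr3 and Dusp6 turned from -0.089 to 0.014 with median-of-ratios scaling, to 0.34 without the 2 farthest samples, and to between -0.45 and 0.73 leaving out 1 sample. The scores turned from -0.86 to 0.14 without the 2 farthest samples, and lay between -0.98 and -0.53 leaving out 1. Median-of-ratios scaling moved the median of all genes from -0.059 to -0.0014. The median of the other receptors and coreceptors turned from -0.085 to 0.059 without HE3. The cause of these shifts was not tested.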
